A study of Mus musculus with 2 samples.

Results

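The variable (V) genes of the T cell receptor were read in the immune cells of mouse gliomas, from droplet single-cell RNA counts of 2 libraries. Members were all genes whose symbol began with Trav, Trbv, Trgv, Tcrg-V or Trdv and that had at least 5 unique molecular identifiers (UMIs, tags that mark single captured transcripts) over both libraries. This left 97 of 176 V genes in the files, out of 32285 genes in all: 64 of 128 Trav, 22 of 35 Trbv, all 7 gamma-chain and 4 of 6 Trdv genes. Trav6d-5 and Trav6-3 lay just inside the limit with 6 UMIs each, and Trav9d-4, Trav11n, Trav13n-3 and Trav13-3 just outside with 3 each. Of the other genes left out, 61 had no UMI.

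Each T cell assembles its receptor by joining V, (D) and J segments, an alpha with a beta chain or a gamma with a delta chain, and passes the joined genes on to its daughter cells. A V gene shared by many cells can come from separate joining events or from the division of 1 cell, and only the sequence of the join (CDR3) tells these apart. No CDR3 sequence was used here, so the values below are V gene usage and not clone counts. In mice, CD8 T cells see peptides on MHC class I and CD4 T cells on class II, Foxp3 marks regulatory T cells, and Trdc is the constant gene of the delta chain.

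The tumours grew from CT-2A, a mouse glioma cell line, for 14 days inside the brain, and CD45+ leukocytes were taken from them with magnetic beads. The loading was 16000 cells per library. One library came from wildtype hosts and the other from Glut5 KO hosts, which lack the fructose transporter encoded by Slc2a5. The design text of the record has the word knockdown, and the labels of the samples have KO. The labels speak of 1 mouse, yet both libraries held barcodes with Y-linked UMIs alone and barcodes with Xist alone, so cells of more than 1 animal were present and their number is not given in the sources used here. Slc2a5 had 384 UMIs in 292 barcodes of the wildtype library (95% interval of the level 2.98 to 3.66 CPM around 3.31 CPM, counts per 1e6 UMIs) and 1 UMI in 1 barcode of the Glut5 KO library. Each genotype had 1 library, which leaves no replicate to test against and gives no p-value, and genotype, library and animals cannot be told apart. Intervals are exact Clopper-Pearson intervals for shares and conditional binomial intervals for ratios, all at 95%, and cover counting error only.

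Receptors could be read this way because the kit sequences the 5′ end of transcripts, where the V segment lies, with a transcript read of 91 bases. How far a V gene can be told from its copies therefore depends on the 91-base stretches that no other transcript shares. All but 3 of the Trbv genes were unique throughout (32 of 35), while Trbv5 and Trbv4 were unique in 25.9% and 31.7% of such stretches. The mouse Trav locus holds duplicated blocks whose genes carry the letters d and n, and 39 of 128 Trav genes had no unique stretch at all. Those 39 genes had 3 UMIs together and none of them was a member. Trav genes with no letter held 1460 UMIs in wildtype and 2380 in Glut5 KO T barcodes (defined below), the d copies 170 and 261, and the n copies 281 and 285. Trav11 and Trav11d, the alpha genes of invariant natural killer T cells, had no UMI in either library, but only 0.395% of Trav11's stretches were unique, so their use could not be read.

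The Trav16 copies show how little separates such genes, and they matter for a CD8 pairing described further on. The first 300 bases of their V exons (GRCm38, GENCODE vM21, plus strand) lie at chr14:53743405-53743704 for Trav16, chr14:53047521-53047820 for Trav16d-dv11 and chr14:53351321-53351620 for Trav16n. They are given 5′ to 3′, with capitals at the 6 positions where the copies differ.
Trav16: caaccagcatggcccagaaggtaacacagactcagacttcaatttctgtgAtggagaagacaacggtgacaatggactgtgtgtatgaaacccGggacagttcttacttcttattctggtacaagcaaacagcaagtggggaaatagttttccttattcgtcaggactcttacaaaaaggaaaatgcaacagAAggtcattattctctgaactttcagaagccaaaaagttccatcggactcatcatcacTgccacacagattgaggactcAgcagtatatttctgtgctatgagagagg
Trav16d-dv11: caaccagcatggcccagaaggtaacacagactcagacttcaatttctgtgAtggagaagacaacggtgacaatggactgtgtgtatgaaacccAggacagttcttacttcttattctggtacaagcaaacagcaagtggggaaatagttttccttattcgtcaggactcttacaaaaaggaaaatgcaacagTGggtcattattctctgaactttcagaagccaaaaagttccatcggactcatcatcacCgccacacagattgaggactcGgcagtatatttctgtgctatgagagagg
Trav16n: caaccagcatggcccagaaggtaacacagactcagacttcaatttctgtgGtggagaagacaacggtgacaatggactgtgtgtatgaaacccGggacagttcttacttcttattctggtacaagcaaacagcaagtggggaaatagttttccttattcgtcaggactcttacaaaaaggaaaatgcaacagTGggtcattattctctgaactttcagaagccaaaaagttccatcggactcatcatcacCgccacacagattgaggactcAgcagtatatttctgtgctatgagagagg
Counted from the first base of the exon, Trav16 and Trav16d-dv11 differed by G94A, A193T, A194G, T251C and A272G (98.3% identity). Trav16 and Trav16n differed by A51G, A193T, A194G and T251C (98.7%), and Trav16d-dv11 and Trav16n by A51G, A94G and G272A (99.0%). A unique 91-base stretch made up 77.9% of Trav16, 58.6% of Trav16d-dv11 and 65.1% of Trav16n. In the cells the copies stayed apart: 1 Glut5 KO T barcode had UMIs of both Trav16 and Trav16d-dv11, and no wildtype T barcode had UMIs of more than 1 copy.

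T barcodes were barcodes with at least 300 genes, under 10% mitochondrial UMIs and at least 2 UMIs from Cd3e, Cd3d and Cd3g, which encode the CD3 signalling chains that travel with every T cell receptor. There were 856 of 11473 in the wildtype library (7.46%, 6.99 to 7.96) and 1208 of 12112 in the Glut5 KO library (9.97%, 9.45 to 10.5). Their median depth was 13434.5 and 8860.5 UMIs. The 9 T cell markers summed to 11.9 and 17.3 UMIs per 10000 in T barcodes, against 0.32 and 0.72 outside them, and the 4 B cell markers to 0.50 and 2.03. The libraries held 116105873 and 96851696 UMIs in 11495 and 12165 barcodes, of which 188 barcode sequences were shared, 1 of them a T barcode in both.

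Many T barcodes also carried myeloid RNA. A sum of at least 100 in 10000 UMIs from Apoe, Lyz2, the 3 C1q genes, Cd74 and 3 class II genes stood in 580 wildtype (67.8%) and 675 Glut5 KO (55.9%) T barcodes, called mixed here. Xist and a Y-linked gene were found together in 24.9% and 23.2% of the T barcodes with either. Among all barcodes with either that passed the filters this was 6.36% and 6.68%. In T barcodes that were not mixed, 276 and 533, this share was 5.10% and 8.57%, and the median depths were 4943 and 5143 UMIs. The leading results are therefore given without mixed barcodes too.

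A V segment was found in most T barcodes. A Trbv UMI stood in 82.9% of wildtype (80.3 to 85.4) and 74.2% of Glut5 KO T barcodes (71.6 to 76.6), and a Trav UMI in 62.5% and 54.7%. Gamma V genes were found in 20.8% and 27.2%, and Trdv genes in 9.70% and 12.9%. As a background, barcodes with C1qa, a complement gene of microglia and macrophages, and no Cd3 UMI had a Trbv UMI in 0.306% and 1.49% and a Trav UMI in 0.523% and 1.08%, at median depths of 9699 and 7382 UMIs. A barcode was assigned the gene of a chain with most UMIs, and ties were left unassigned, which gave a Trbv gene to 686 and 871 T barcodes and a Trav gene to 485 and 611.

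Classes were set by transcripts: CD8 for Cd8a or Cd8b1, Foxp3, CD4 for Cd4 without Foxp3, Trdc for Trdc without these, conflicting for CD8 together with Cd4 or Foxp3, and none. The CD8 class held 289 wildtype and 323 Glut5 KO T barcodes, the CD4 class 135 and 211, and the Foxp3 class 64 and 163. The Trdc class held 40 and 61, the conflicting class 81 and 130, and 247 and 320 T barcodes had none of these transcripts. Median depths were 13308 and 7801 UMIs in the CD8 class and 14844 and 10644 in the CD4 class, and 10221 and 4503 in barcodes with none of the transcripts. How far depth set the class sizes was not tested.

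Beta-chain usage was broad in both libraries. All 22 Trbv members were assigned at least once in each library, with an effective number of genes (the exponential of the Shannon entropy, which is the number of equally used genes that would give the same diversity) of 16.5 in wildtype (15.7 to 17.4) and 16.1 in Glut5 KO (15.3 to 16.8). These intervals overlap. Trav usage had effective numbers of 45.7 (42.9 to 48.8) over 62 assigned genes and 43.2 (40.6 to 46.1) over 61, and these intervals overlap as well. The genes at the top of the list differed between the libraries, as the single genes below show.

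**Figure D1:**
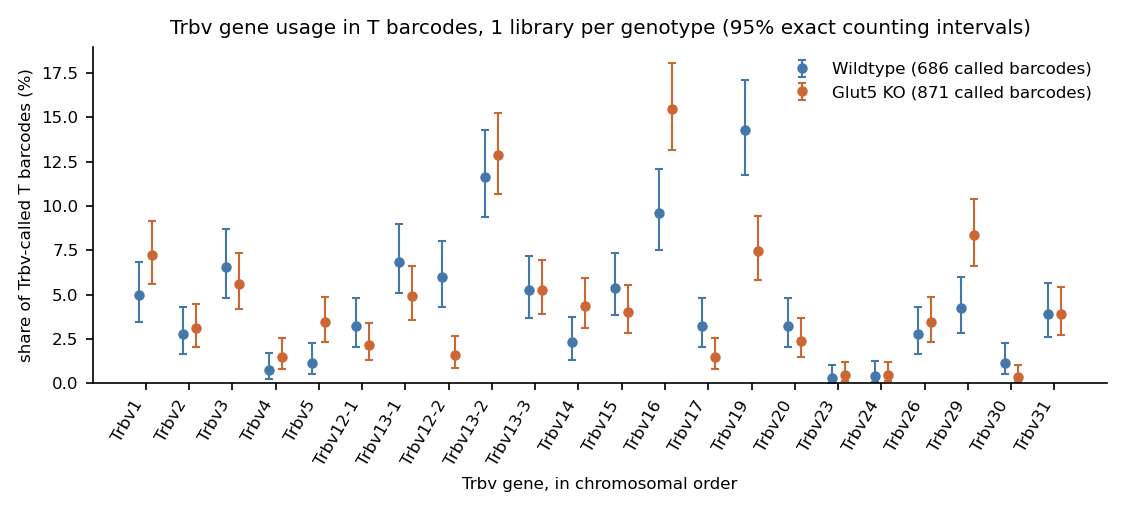
Share of T barcodes with an assigned (called) Trbv gene, in percent, for each of the 22 Trbv members in the wildtype and Glut5 KO libraries, with exact 95% intervals for counting error. Trbv19 leads in wildtype (14.3%) and Trbv16 in Glut5 KO (15.5%).

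The genes on which the results turn are shown by the end of their V segment, which enters the CDR3. The last 60 annotated coding bases are printed 5′ to 3′ (GENCODE vM21, GRCm38), with the codon of the conserved cysteine that opens the CDR3 in capitals. They lie at chr14:53635340-53635399 (Trav13-2), chr6:41271822-41271881 (Trbv29), chr6:41152171-41152230 (Trbv16), chr6:41178989-41179048 (Trbv19), chr13:19190870-19190929 (Tcrg-V6) and chr14:54075456-54075515 (Trdv4).
Trav13-2: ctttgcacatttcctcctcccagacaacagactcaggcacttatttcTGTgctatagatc
Trbv29: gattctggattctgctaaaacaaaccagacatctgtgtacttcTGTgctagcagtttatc
Trbv16: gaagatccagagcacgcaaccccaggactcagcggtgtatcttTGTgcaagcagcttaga
Trbv19: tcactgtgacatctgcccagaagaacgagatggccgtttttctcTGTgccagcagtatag
Tcrg-V6: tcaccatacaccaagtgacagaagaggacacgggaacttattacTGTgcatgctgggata
Trdv4: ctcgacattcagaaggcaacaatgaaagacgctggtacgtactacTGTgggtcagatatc
As annotated, the V segments thus reach 10 to 14 bases past this codon, and the rest of the CDR3 comes from the join and the J segment. How many of these bases the joined receptors kept was not read. Trbv29 and Trbv16 both have 14 such annotated bases, and Trav13-2 has 10.

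Trbv19 was the most used beta gene of the wildtype library, in 98 of 686 assigned T barcodes (14.3%, 11.8 to 17.1), against 65 of 871 in Glut5 KO (7.46%, 5.81 to 9.41). Its Glut5 KO over wildtype ratio was 0.522 (0.376 to 0.722). Trbv16 was the most used in Glut5 KO, with 135 T barcodes (15.5%, 13.2 to 18.1) against 66 (9.62%, 7.52 to 12.1), a ratio of 1.61 (1.19 to 2.20). Trbv13-2, a gene used widely in mice, had 80 (11.7%) and 112 (12.9%), and its ratio interval of 0.820 to 1.49 included 1.

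Trbv29 had 29 wildtype (4.23%) and 73 Glut5 KO T barcodes (8.38%), a ratio of 1.98 (1.27 to 3.16). Trbv12-2 went the other way by assigned barcodes, with 41 (5.98%) against 14 (1.61%), a ratio of 0.269 (0.135 to 0.504). Its UMIs stood in 92 of 710 wildtype and 81 of 896 Glut5 KO T barcodes with any Trbv UMI, which is a smaller gap. Many barcodes with Trbv12-2 were thus assigned another gene or none. Trbv17 had 22 against 13 (ratio 0.465, 0.215 to 0.966) and Trbv14 had 16 against 38 (1.87, 1.02 to 3.59). Trbv5 had the highest ratio of the Trbv genes with at least 20 assigned T barcodes, 2.95 (1.32 to 7.46) from 8 and 30, but its median was 1 UMI per assigned barcode. The rest of the commonly used genes were closer: Trbv3 had 45 and 49 T barcodes, Trbv13-1 had 47 and 43, and Trbv1 had 34 and 63 (ratio 1.46, 0.947 to 2.28).

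Alpha-chain usage was spread over more genes, and single genes stood out more. Trav13-2 was assigned in 9 of 485 wildtype (1.86%, 0.852 to 3.49) and 58 of 611 Glut5 KO T barcodes (9.49%, 7.29 to 12.1), a ratio of 5.12 (2.52 to 11.7). Trav16d-dv11 had 5 and 24 (3.81, 1.43 to 12.8) and Trav7-4 had 5 and 22 (3.49, 1.29 to 11.8). Lower in Glut5 KO were Trav6n-6, with 20 and 2 (0.0794, 0.009 to 0.327), and Trav6-7-dv9, with 30 (6.19%) and 14 (2.29%), a ratio of 0.370 (0.181 to 0.720). Trav12-1 had 14 and 6 (0.340, 0.107 to 0.942) and Trav12-2 had 25 and 13 (0.413, 0.194 to 0.838). Trav5-4, whose ratio was 2.15, had an interval that included 1 (0.867 to 6.06).

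Other leading alpha genes of the wildtype library were Trav13-1 (24 T barcodes), Trav10 (22) and Trav16 (20), and of the Glut5 KO library Trav3-3 (33), Trav16 (22) and Trav4-4-dv10 (22). Trav1, the alpha gene of mucosal-associated invariant T cells, had 15 and 17, a ratio of 0.900 (0.423 to 1.93). Among the 41 Trbv and Trav genes with at least 20 assigned T barcodes over both libraries, 14 had a share at least 1.5 times higher in Glut5 KO and 9 a share at least 1.5 times lower. Without mixed barcodes these were 6 and 2 of 15 such genes. Not all of these ratios were clear of 1 in the full set of T barcodes. Among the higher genes the intervals of Trav16n, Trav9-1, Trav7-5, Trav12-3, Trav5-4 and Trav13-4-dv7 included 1. Among the lower genes those of Trav13n-4 and Trav13-1 did. Only V genes were assigned, so this count has no share over all genes beside it.

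Levels were also taken as UMIs summed over the T barcodes and divided by all their UMIs. Of 80 members with at least 20 UMIs, 41 were at least 1.5-fold higher (51.3%) and 11 at least 1.5-fold lower (13.8%), against 9.09% and 5.85% of 12948 genes with at least 20 UMIs, or 14.9% in either direction. The median log2 difference of these members was 0.63, and 0.02 over all genes. It was 0.47 for 49 Trav, 0.41 for 22 Trbv, 1.28 for 5 gamma and 1.05 for 4 Trdv genes. Receptor genes other than the V segments and Cd3 were counted the same way: 7 of 20 with at least 20 UMIs were at least 1.5-fold higher and 0 lower, with a median of 0.48. Within that list Trac differed by 0.34, Trbc1 by -0.11, Cd5 by 1.01 and Tcrg-C1 by 1.89 on the log2 scale. Myeloid RNA per T barcode differed as well, with a median of 333.64 UMIs per 10000 in wildtype and 199.72 in Glut5 KO, so a level relative to all UMIs also reads that mixture, whose part was not tested. Shares among assigned barcodes do not have this denominator.

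The contrasts between the libraries differed in size from class to class. In the CD8 class Trbv16 was assigned in 35 of 258 wildtype (13.6%) and 102 of 276 Glut5 KO barcodes (37.0%, 31.2 to 42.9), a ratio of 2.72 (1.84 to 4.12). In wildtype it stood beside Trbv19 (36, 14.0%) and Trbv13-2 (23, 8.91%), while in Glut5 KO the next genes were Trbv19 (25, 9.06%) and Trbv13-2 (21, 7.61%). The effective number of Trbv genes in the CD8 class was 15.5 in wildtype (14.3 to 16.8) and 10.8 in Glut5 KO (9.38 to 12.4), intervals that do not overlap. Without mixed barcodes it was 13.9 and 9.77, with Trbv16 in 11 of 88 (12.5%) and 56 of 143 (39.2%). Trbv19 in the CD8 class had a ratio of 0.649, with an interval that included 1 (0.374 to 1.11). Trbv12-2 was the assigned gene of 22 and 6 CD8 barcodes, a ratio of 0.255 (0.0846 to 0.648).

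In the CD4 class different genes led in each library. Trbv19 was assigned in 36 of 112 wildtype barcodes (32.1%, 23.6 to 41.6), with a Glut5 KO over wildtype ratio of 0.0899 (0.0275 to 0.230). Without mixed barcodes it was in 16 of 32 wildtype and 3 of 84 Glut5 KO barcodes (3.57%). Trbv29 was assigned in 37 of 173 Glut5 KO barcodes (21.4%, 15.5 to 28.3) and in 2 of 112 wildtype barcodes (1.79%, 0.217 to 6.30), a ratio of 12 (3.09 to 103). Trbv29 went the opposite way in the CD8 class, with 17 of 258 (6.59%) in wildtype and 3 of 276 (1.09%) in Glut5 KO, a ratio of 0.165 (0.0310 to 0.570). Without mixed barcodes the CD8 ranges of the libraries overlapped, as given under the flagged results. Trbv13-2 was in between in both CD4 classes, with 15 (13.4%) and 22 (12.7%). The effective number was 10.3 (8.59 to 12.4) and 12.3 (11.0 to 13.8). Without mixed barcodes it was 5.70 and 10.4, from only 32 and 84 barcodes, and the part of these unequal numbers was not tested.

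The alpha genes of the CD4 class followed the same libraries. Trav13-2 was assigned in 39 of 125 Glut5 KO barcodes (31.2%, 23.2 to 40.1) and in 0 of 86 wildtype barcodes, which allows a share of up to 3.49%. Trav6-7-dv9 was assigned in 17 of 86 wildtype (19.8%) and 3 of 125 Glut5 KO barcodes, a ratio of 0.121 (0.0228 to 0.420), and Trav12-2 led after it in wildtype with 13 (15.1%). In the CD8 class Trav16 had 17 of 176 wildtype and 3 of 146 Glut5 KO barcodes, and Trav16d-dv11 led in Glut5 KO with 15 (10.3%).

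In regulatory T cells, read by Foxp3, Trbv13-2 was the most used gene in both, in 9 of 52 wildtype (17.3%) and 21 of 132 Glut5 KO barcodes (15.9%). Effective numbers of Trbv genes were 12.9 (10.9 to 15.2) and 15.1 (13.4 to 16.9), from these unequal numbers of barcodes. With Glut5 KO drawn down to 52 barcodes, 16.7 Trbv genes would be found, against 16 in wildtype. Trav4-4-dv10 was the most used alpha gene in both, in 5 of 38 (13.2%) and 10 of 111 (9.01%). Trbv29 was assigned in 0 of 52 wildtype Foxp3 barcodes, which allows up to 5.77%, and in 11 of 132 Glut5 KO barcodes (8.33%).

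**Figure D2:**
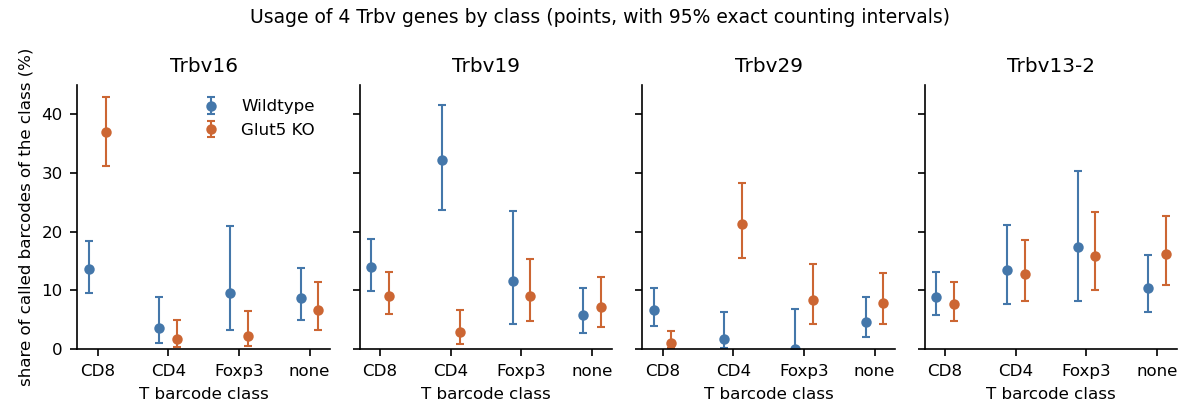
Share of assigned T barcodes, in percent, for Trbv16, Trbv19, Trbv29 and Trbv13-2 within the CD8, CD4 and Foxp3 classes and the barcodes with none of these transcripts, in each library, with exact 95% intervals for counting error. Trbv16 stands at 37.0% of the Glut5 KO CD8 class, Trbv19 at 32.1% of the wildtype CD4 class and Trbv29 at 21.4% of the Glut5 KO CD4 class.

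Trbv16 was used more in the CD8 than in the CD4 class of each library: the CD8 over CD4 ratio of its share was 3.80 (1.36 to 14.7) in wildtype and 21.3 (7.09 to 105) in Glut5 KO. Trbv19 changed sides, with 0.434 (0.266 to 0.709) in wildtype and 3.13 (1.18 to 10.5) in Glut5 KO. Both classes of a ratio come from the same library, though their depths differ (above), and the part of depth was not tested.

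Leading genes of the CD8 and CD4 classes were split by barcodes of male and female origin. In the Glut5 KO CD8 class Trbv16 was assigned in 45 of 101 barcodes with a Y-linked UMI alone (44.6%, 34.7 to 54.8) and in 10 of 55 with Xist alone (18.2%, 9.08 to 30.9). In the Glut5 KO CD4 class Trbv29 was assigned in 24 of 71 Y-only barcodes (33.8%, 23.0 to 46.0) and 1 of 28 Xist-only barcodes (3.57%, 0.0904 to 18.3). In the wildtype CD4 class Trbv19 was assigned in 16 of 45 Y-only (35.6%, 21.9 to 51.2) and 1 of 13 Xist-only barcodes (7.69%, 0.195 to 36). The intervals do not overlap for Trbv16 and Trbv29 and overlap for Trbv19, and the number of animals behind each sex is not given in the sources used here. Over all wildtype T barcodes Trbv19 was in 14.5% of the Y-only and 15% of the Xist-only barcodes, and in the CD8 class in 14.8% and 18.4%. Wildtype Trbv16 in the CD8 class had 15 of 115 (13.0%) and 5 of 49 (10.2%).

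Pairs of an alpha and a beta gene narrow usage further, since both chains of 1 receptor are read from the same barcode. Both a Trav and a Trbv gene were assigned in 418 wildtype (48.8%) and 507 Glut5 KO T barcodes (42.0%). These formed 266 and 278 different pairs, of which 204 and 207 were seen once. Pairs seen at least 5 times numbered 7 in wildtype, with 73 barcodes (17.5%), and 14 in Glut5 KO, with 156 barcodes (30.8%). Of these frequent pairs 0 were frequent in both libraries.

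The most frequent pair was Trav13-2 with Trbv29, in 50 of 507 paired Glut5 KO barcodes (9.86%, 7.41 to 12.8) and 0 of 418 wildtype barcodes, which allows up to 0.718%. It held 50 of the 65 Trbv29 barcodes that had an alpha gene, and 50 of the 56 Trav13-2 barcodes that had a beta gene. By class 36 of its barcodes were CD4, 5 Foxp3, 6 conflicting and 3 none. Of the 50, 30 had a Y-linked UMI alone and 1 had Xist alone, against 374 and 250 among all Glut5 KO T barcodes. Without mixed barcodes the share was 10.0%.

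These barcodes carried Cd4 and genes of activated T cells. Gzmb was found in 24 of 50, Il2ra in 27 and Foxp3 in 7. Cd4 was found in 46 of 50, Ctla4 in 47, Pdcd1, the gene of the checkpoint receptor PD-1, in 43, and Cd40lg, a helper ligand, in 30. Within the Glut5 KO CD4 class, Ifng was found in 24 of 36 barcodes with the pair (66.7%, 49.0 to 81.4) and in 49 of 175 without it (28.0%, 21.5 to 35.3). Pdcd1 stood in 86.1% and 64.6%, Ctla4 in 94.4% and 76.0% and Cd40lg in 58.3% and 48.6% of the same barcodes. Tox went the other way, in 38.9% with the pair and 54.3% without it. By summed UMIs Ifng was at 502 and 208 CPM and Pdcd1 at 322 and 268 CPM. Ctla4, at 454 and 458 CPM, and Cd40lg, at 88.3 and 97.4 CPM, were not higher with the pair by this measure. Lag3 was in 66.7% and 47.4% of barcodes but at 93.1 and 150 CPM. Median depths with and without the pair were 15330 and 9897 UMIs, and the part of depth in these gaps was not tested.

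In wildtype the most frequent pairs joined Trbv19 to several alpha genes. Trav6-7-dv9 with Trbv19 was found in 19 of 418 barcodes (4.55%, 2.76 to 7.01), 14 of them CD4, and in 2 Glut5 KO barcodes. Trav12-2 with Trbv19 was found in 13, of which 12 were CD4, and in 1 Glut5 KO barcode. Trav16 with Trbv19 was also found in 13, but 12 of these were CD8 and it was found in 0 Glut5 KO barcodes. Trbv19 in wildtype was therefore shared by CD4 and CD8 barcodes that differed in their assigned alpha gene. Only 1 alpha gene was assigned per barcode. UMIs of at least 2 Trav genes stood in 48 of 98 wildtype CD4 barcodes with a Trav gene (49.0%), and in 28.6% in the CD8 class. Trav6-7-dv9 had UMIs in 52 wildtype T barcodes and was assigned in 30, and Trav12-2 had UMIs in 53 and was assigned in 25. Whether the same cells carried both genes was not tested.

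The Trav6-7-dv9 pair had Cd4 in 18 of 19 barcodes, Ctla4 in 18, Pdcd1 in 15, Cd40lg in 13 (68.4%) and Ifng in 11 (57.9%). In the wildtype CD4 class Ifng stood in 7 of 14 barcodes with this pair (50.0%) and 26 of 121 without it (21.5%), with intervals that overlap. By summed UMIs Ifng went the other way, at 95.4 CPM with the pair and 199 CPM without it. Of the 19 barcodes, 10 had a Y-linked UMI alone and 1 had Xist alone, against 326 and 154 among all wildtype T barcodes.

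The Trav16 family paired with Trbv19 in CD8 barcodes of both libraries, but with different copies assigned. In wildtype 15 barcodes joined a Trav16 family gene to Trbv19 and in Glut5 KO 18, and Cd8a or Cd8b1 was found in all 15 and all 18. The copy was Trav16 in 13 of the wildtype barcodes and in 0 of the Glut5 KO barcodes. Trav16d-dv11 was assigned with Trbv19 in 18 Glut5 KO barcodes (3.55%, 2.12 to 5.55) and in 1 wildtype barcode. Those copies are separated by the 5 positions printed above. A read can tell them apart only where it covers any of these positions, and reads were not examined here. The Trav16 pair had Pdcd1 in 12 of 13, Lag3 in 12 and Tox in 12, and the Trav16d-dv11 pair had Pdcd1 in 18 of 18, Lag3 in 17 and Gzmk in 11. These are checkpoint and exhaustion genes, with Gzmk encoding a granzyme. Trav16n paired instead with Trbv13-2, in 10 Glut5 KO barcodes and 0 wildtype barcodes.

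The next frequent pairs had 0 barcodes in the other library. In wildtype Trav6n-6 with Trbv13-1 had 9 barcodes, all CD8, with Gzmk in 9, Pdcd1 in 9, and the gamma gene Trgv2 in 7. Trav13n-4 with Trbv16 had 8, all CD8. In Glut5 KO Trav14-2 with Trbv14 had 11, of which 6 were CD4, and Trav3-3 with Trbv13-2 had 11, with Ctla4 in 11, Gzmb in 10 and Il2ra in 10. Xist-only and Y-only barcodes numbered 5 and 1 in that last pair and 5 and 5 in Trav16d-dv11 with Trbv19, so the pairs did not share 1 sex.

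**Figure D3:**
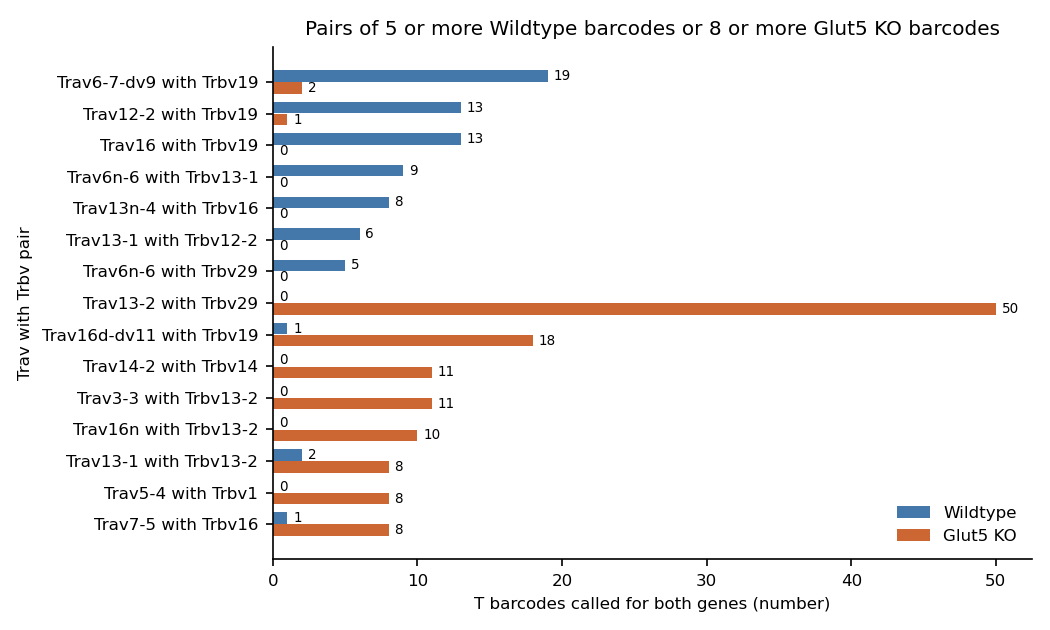
Number of T barcodes with each alpha and beta gene pair that had at least 5 wildtype or at least 8 Glut5 KO barcodes, drawn as bars for each library. Trav13-2 with Trbv29 has 50 barcodes in Glut5 KO and 0 in wildtype, and no pair is frequent in both.

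The Trbv16 barcodes of the CD8 class were set against CD8 barcodes with any other Trbv gene of the same library, by readouts that played no role in the assignment. In Glut5 KO, Gzmb, which encodes granzyme B, was found in 95 of 102 Trbv16 barcodes (93.1%, 86.4 to 97.2) and 101 of 174 others (58.0%, 50.3 to 65.5). Pdcd1 stood in 88 (86.3%) and 105 (60.3%), and Ifng in 32 (31.4%, 22.5 to 41.3) and 25 (14.4%, 9.52 to 20.5). Median depth was lower in the Trbv16 barcodes, at 8004 against 10141 UMIs. Gzmk was found in 24.5% and 29.9%. Trbv16 barcodes were thus rich in Gzmb and Pdcd1 beyond the counting intervals, and not in Gzmk.

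Receptor transcripts of these barcodes differed as well. Trgv2, a gamma V gene, stood in 61 of 102 (59.8%, 49.6 to 69.4) Trbv16 barcodes and 32 of 174 others (18.4%, 12.9 to 25). An alpha V gene was assigned in 30 (29.4%, 20.8 to 39.3) and 104 (59.8%, 52.1 to 67.1), although the alpha constant gene Trac was found in 61.8% and 60.3%. The beta constant gene Trbc1 stood in 5 (4.90%, 1.61 to 11.1) and 33 (19.0%), and Trbc2 in 58.8% and 55.2%. So the Trbv16 barcodes had alpha constant transcripts about as often as the others, while their V segment was seen less often by these counts. Without mixed barcodes Trgv2 stood in 64.3% and 26.4%, an alpha V gene in 33.9% and 65.5% and Gzmb in 92.9% and 62.1%. Of those 56 Trbv16 barcodes, 33 were Y-only and 0 Xist-only, which allows up to 5.36%, against 30 and 25 among 87 others.

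Wildtype Trbv16 CD8 barcodes, 35 against 223 others, had Trgv2 in 15 (42.9%, 26.3 to 60.6) against 37 (16.6%, 12 to 22.1) and Ifng in 14 (40.0%, 23.9 to 57.9) against 30 (13.5%, 9.26 to 18.6). Gzmb stood in 80.0% (63.1 to 91.6) and 64.6% (57.9 to 70.8), which overlap, and an alpha V gene in 51.4% and 64.1%. Here the Trbv16 barcodes were the deeper ones, with medians of 17278 and 13223 UMIs. Among the 8 Trbv genes with at least 10 Glut5 KO CD8 barcodes, Trbv16 had the highest share with Trgv2, before Trbv19 (28.0%), and with Gzmb, before Trbv13-3 (70.0%). Among 11 such genes in wildtype it came after Trbv13-1 (45.0%) for Trgv2.

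**Figure D4:**
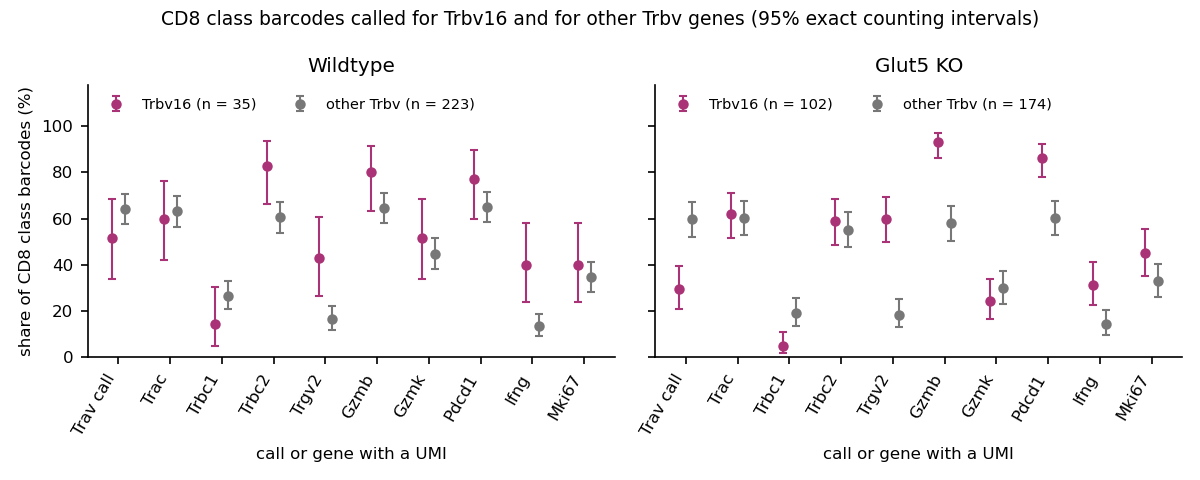
Share of CD8 class barcodes, in percent, with UMIs of the named genes or an assigned alpha V gene, for barcodes assigned Trbv16 and for barcodes assigned any other Trbv gene, in each library, with exact 95% intervals for counting error. In Glut5 KO, Trgv2 stands at 59.8% against 18.4%, and an alpha V gene at 29.4% against 59.8%.

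A further count bears on how barcodes were assigned. UMIs of at least 2 Trbv genes stood in 241 of 710 wildtype (33.9%, 30.5 to 37.6) and 300 of 896 Glut5 KO barcodes with any Trbv gene (33.5%, 30.4 to 36.7). With at least 2 UMIs for each gene this was 15.1% and 14.7%, and with barcodes thinned to 1000 UMIs 6.51% and 8.53% had more than 1 gene. Of the classes the conflicting class had the highest share, at 62.3% and 53.2%. Over all classes it was 47.2% and 35.9% in barcodes with both Xist and a Y-linked gene, and 34.2% and 35.7% in barcodes with either alone. Trbv12-2 (chr6:41118851-41119364) and Trbv13-2 (chr6:41121396-41121832), which are neighbours in the locus, stood together in 29 wildtype and 39 Glut5 KO barcodes, where 20.1 and 19.1 would follow if the genes were independent. In Glut5 KO some genes further apart were also found together more often than that, such as Trbv3 with Trbv16 (25 barcodes against 14.1) and Trbv12-2 with Trbv14 (10 against 3.98). Trbv12-2 was in 92 wildtype and 81 Glut5 KO T barcodes but was the assigned gene in 41 and 14 of them.

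Gamma and delta V genes read a different lineage, T cells with a gamma-delta receptor, but gamma V transcripts also occur in alpha-beta T cells. Trgv2 was the most detected gamma gene, in 144 of 856 wildtype and 242 of 1208 Glut5 KO T barcodes, and 54 and 106 of these were in the CD8 class. Tcrg-V6 was found in 18 (2.10%) and 57 (4.72%), Tcrg-V1 in 29 and 68, and Tcrg-V4 in 24 and 51. Tcrg-V3 was found in 5 and 11, Tcrg-V5 in 3 and 8, and Tcrg-V7 in 2 and 10 T barcodes. Among Trdv genes Trdv4 led with 53 (6.19%) and 91 (7.53%), followed by Trdv2-2 (16 and 32), Trdv5 (9 and 34) and Trdv1 (14 and 11). Genes named both Trav and dv were counted as Trav and are not among these.

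In the Trdc class a gamma V gene was found in 28 of 40 wildtype (70.0%, 53.5 to 83.4) and 53 of 61 Glut5 KO barcodes (86.9%, 75.8 to 94.2), intervals that overlap. With each barcode thinned to 1000 UMIs, and classes set anew from these, the shares were 21.4% and 54.5%. In the CD8 class it was found in 67 of 289 (23.2%) and 128 of 323 (39.6%). Trgv2 was assigned in 9 of 20 wildtype Trdc barcodes with an assigned gamma gene and Tcrg-V6 in 8, while Tcrg-V6 was assigned in 27 of 46 in Glut5 KO (58.7%). Trdv1 was found in 1 wildtype and 0 Glut5 KO barcodes of the Trdc class, and in 4 of 64 and 3 of 163 of the Foxp3 class. Genes with a dv name led the Trav genes of the Trdc class. Trav15-1-dv6-1 was assigned in 5 of 13 wildtype and 2 of 16 Glut5 KO barcodes with an assigned Trav gene. Trav15d-1-dv6d-1 was assigned in 2 and 3 of these, and Trav13-4-dv7 in 1 and 4.

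The most frequent gamma and delta pair in both libraries was Tcrg-V6 with Trdv4, the receptor known from interleukin 17 producing gamma-delta T cells of fetal origin. It was assigned in 15 of 32 wildtype (46.9%, 29.1 to 65.3) and 42 of 69 Glut5 KO T barcodes with both genes assigned (60.9%, 48.4 to 72.4). Cd163l1, which encodes the scavenger receptor SCART1 of such cells, was found in 15 of 15 and 41 of 42. Il17a was found in 11 and 32, Blk in 10 and 33, and Il23r in 6 and 17. Ccr6 was found in 5 of 15 and 5 of 42, and Sox13, a transcription factor gene, in 2 and 17. In the other Trdc barcodes, 32 and 34, Cd163l1 was found in 2 and 6, Il17a in 1 and 6, Ccr6 in 0 and 6 and Sox13 in 1 and 3. The intervals for Cd163l1 and for Il17a do not overlap between the pair and these barcodes in either library, while Ccr6 was no higher with the pair in Glut5 KO.

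The CD8 class without the pair served as background: Il17a was found in 1 of 288 and 8 of 320 barcodes and Cd163l1 in 3 and 4. The pair's barcodes had median depths of 8145 and 5407.5 UMIs, below those of all T barcodes. No Trbv UMI was found in 8 of 15 and 34 of 42. Y-only and Xist-only barcodes numbered 5 and 1 in wildtype and 14 and 9 in Glut5 KO. Natural killer genes stood in many of the other Trdc barcodes, with Klrb1c in 18 of 32 (56.3%) and 8 of 34 (23.5%) and Ncr1 in 14 (43.8%) and 5 (14.7%), while Ncr1 was in 0 of 15 and 3 of 42 barcodes with the pair.

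**Figure D5:**
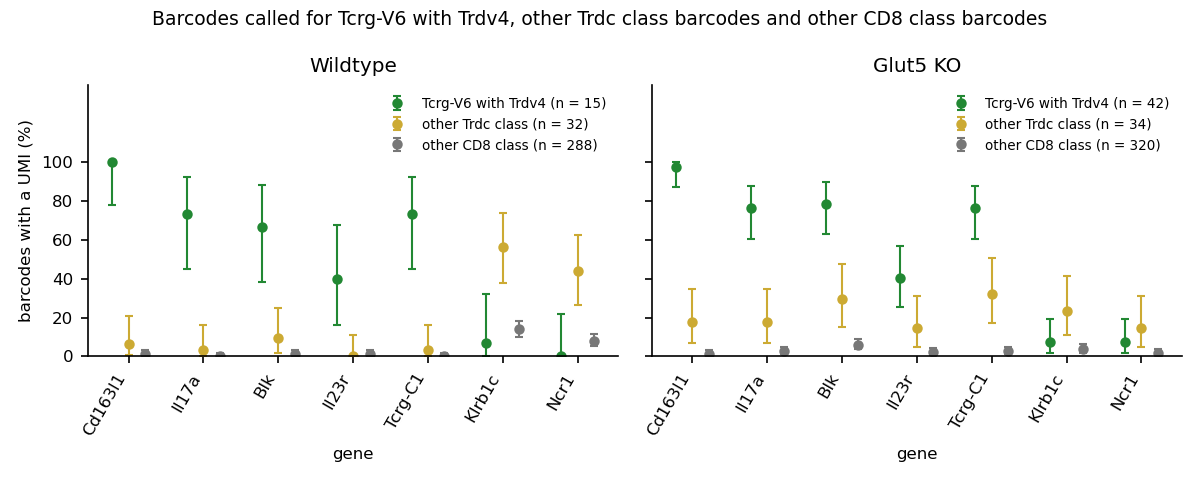
Share of barcodes, in percent, with UMIs of the named genes, for T barcodes with Tcrg-V6 and Trdv4, for the other barcodes of the Trdc class and for the other barcodes of the CD8 class, in each library, with exact 95% intervals for counting error. Cd163l1 is in 15 of 15 wildtype and 41 of 42 Glut5 KO barcodes with the pair, and in 2 of 32 and 6 of 34 of the others.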

How the data were processed

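Gene counts of 2 10x 5′ libraries of CD45+ tumour leukocytes were used, 1 wildtype and 1 Glut5 KO. The values are UMI counts per gene and barcode as deposited, with no normalization, per the file headers. Per the submitters' processing notes, the authors used Cell Ranger 3.1.0 with mm10, but the header of the matrices gives 7.0.1. Whether introns were counted, and which annotation served, is not given in the sources used here. If intron reads were counted, unspliced V gene transcripts are included. Depth was 116105873 and 96851696 UMIs.

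The members, classes and gene lists were chosen with earlier results of these data known. Barcodes needed 300 genes, under 10% mitochondrial UMIs and 2 Cd3 UMIs. No doublet caller was run; mixed barcodes (100 myeloid UMIs per 10000, 9 genes) were left out as an alternative instead. A barcode's gene of a chain was the one with most UMIs, at least 1, without ties. Folds needed 20 assigned barcodes or UMIs and 1.5-fold. Named genes were drawn from the 6 most used Trbv and Trav genes of each library and the 3 most used of each class. Others came from all gamma and delta members, Trav1, Trav11 and Trav11d, and the 4 highest and 4 lowest ratios of Trbv and of Trav. Genes past 1.5-fold whose interval included 1 were also named. Pairs came from the 5 most frequent of each library. Other frequent pairs, the Trav16 family, Trbv29 in CD8 barcodes and the transcripts read in Trbv16, paired and gamma-delta barcodes were chosen after their values were seen. Sequences came from GENCODE vM21 transcripts.

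Shares have Clopper-Pearson intervals, ratios conditional exact binomial intervals and effective numbers delta-method intervals, all at 95%. The limit for a count of 0 is 3 counts, which lies below the upper end of the exact interval. Alternatives were a minimum of 2 UMIs per assigned gene, 3 Cd3 UMIs, 20 UMIs per member, no mixed barcodes, barcodes thinned to 1000 UMIs (0 wildtype and 30 Glut5 KO T barcodes were shallower and left out), usage by summed UMIs and gene families. The code was tested on simulated data. Python 3.11.15, numpy 2.4.6, scipy 1.17.1, pandas 2.3.3 and matplotlib 3.10.9 were used.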

Additional observations from a re-analysis of the deposited data

Results flagged for a closer look

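Trbv29 moved in opposite directions in the CD8 and CD4 classes. The Glut5 KO over wildtype ratio of its share was 0.165 in the CD8 class (0.0310 to 0.570), from 17 of 258 and 3 of 276 barcodes, and 12 in the CD4 class (3.09 to 103), from 2 of 112 and 37 of 173. The difference between the classes was not tested, since each genotype has 1 library. Without mixed barcodes the CD8 shares were 3 of 88 (3.41%, 0.709 to 9.64) and 0 of 143, which allows up to 2.10%. These CD8 ranges overlap. The CD4 shares were then 1 of 32 (3.12%) and 20 of 84 (23.8%).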

How the results depend on the processing

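Across 10 other settings, 29 results gave 149 values, of which 90 stayed within the counting interval of the value reported (counts of genes within 1.5 times), 59 moved outside it and 0 reversed. The log2 ratio of the T barcode share, 0.42, was 0.87 without mixed barcodes. The effective number of Trbv genes in wildtype (16.5) was 15.2 with 2 UMIs per assigned gene, 15.3 without mixed barcodes, 15.5 at 1000 UMIs per barcode, 14.4 by summed UMIs and 12.1 by gene family. In Glut5 KO (16.1) it was 15 thinned, 14.3 by UMIs and 12.5 by family. The share of the top Trbv gene in wildtype (14.3%) was 17.5% without mixed barcodes and 24.0% by family, and in Glut5 KO (15.5%) 19.3% by UMIs and 23.0% by family. The effective number of Trav genes in wildtype (45.7) was 40.4 with 2 UMIs, 37.7 without mixed barcodes, 40.7 thinned, 38.5 by UMIs, 13.9 by family and 39.4 with 20 UMIs per member, and in Glut5 KO (43.2) 39.6, 40.4, 39.1, 34.5, 13.4 and 38.7. Barcodes with more than 1 Trbv gene (33.9% in wildtype) were 27.4% without mixed barcodes and 6.51% thinned. In Glut5 KO (33.5%) they were 8.53% thinned. With 2 UMIs they were 17.7% and 18.1% of the barcodes with a Trbv gene at 2 or more UMIs. The 15.1% and 14.7% above are shares of all barcodes with a Trbv UMI. Gamma V genes in the Trdc class (70.0%) fell to 21.4% in thinned wildtype barcodes, and in Glut5 KO (86.9%) to 75.4% with 2 UMIs and 54.5% thinned. The 14 V genes with a higher share in Glut5 KO became 7 with 2 UMIs, 6 without mixed barcodes, 5 thinned, 25 by UMIs, 9 by family and 6 without barcodes of 2 or more Trbv genes. The 9 with a lower share became 2 without mixed barcodes, 3 thinned and 15 by UMIs. The genes with at least 20 counts, 41 as reported, were 28 with 2 UMIs, 15 without mixed barcodes, 14 thinned, 71 by UMIs, 29 by family and 28 without barcodes of 2 or more Trbv genes. The cause of the moves was not tested. Pair shares under other settings, chosen after seeing the data, were 13.0% for Trav13-2 with Trbv29 without barcodes of 2 or more Trbv genes and 7.30% for Trav6-7-dv9 with Trbv19 without mixed barcodes. No paired analysis was possible because each genotype has 1 library. V genes are read at few UMIs per barcode, copies with no unique stretch are not seen, and the counts do not show CDR3 sequences, clones or animals.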

Other observations

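Delta V transcripts were also found in barcodes that were not T barcodes. Among barcodes with no Cd3 UMI and a UMI of Ncr1 or Klrb1c, which encode natural killer receptors, a Trdv UMI stood in 155 of 472 wildtype (32.8%, 28.6 to 37.3) and 152 of 488 Glut5 KO barcodes (31.1%, 27.1 to 35.5). Trdv4 was in 108 and 112 of them and Trdv2-2 in 59 and 54. The same barcodes had a Trbv UMI in 0.424% and 1.43% and a Trav UMI in 0.847% and 0.410%, at median depths of 5156 and 4346.5 UMIs. Barcodes with C1qa and no Cd3 UMI had a Trdv UMI in 0.191% and 0.408%. The share in barcodes with Ncr1 or Klrb1c was thus above that of the myeloid barcodes in both libraries, and above that of the T barcodes (9.70% and 12.9%). Over all barcodes outside the T barcodes, Trdv4 was found in 1.26% and 1.72%, below its share in T barcodes (6.19% and 7.53%).

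Trdv1 was found in few barcodes. The 4 Foxp3 class barcodes of wildtype held 20 Trdv1 UMIs, and the 4 wildtype conflicting class barcodes held 11. In Glut5 KO the 3 Foxp3 class barcodes held 3 UMIs and 4 barcodes with no class transcript held 18.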
